A study of Mus musculus with 15 samples.

Results

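Plasma cell and plasmacytoid genes were followed as a set of 10 (*Mzb1*, *Jchain*, *Xbp1*, *Derl3*, *Cd79a*, *Cd79b*, *Ms4a1*, *Ly6d*, *Tcf4* and *Ccr9*) out of 19938 genes with a probeset of their own, on 15 arrays of sorted small intestinal lamina propria (LP) cells. The genes were chosen by their measured signals on these arrays, since several of them are highest in CD103-CD11b- dendritic cells (DCs), so every comparison of these 10 genes with that population is given as a description and without a test. There were 3 arrays each of CD103-CD11b- DCs, CD103+CD11b+ DCs, CD103-CD11b+ DCs, CD103+CD11b- DCs and CD64+ macrophages (mϕ). All came from untreated wild-type C57BL/6 mice, which the study's methods describe as young adults of either sex, and no allele or agent differed between the populations. The DCs were gated as CD64- and, by a label of the study's array figure, as B220-, a marker of B cells and plasmacytoid DCs (pDCs). The mϕ were gated on CD64 and CD11b. The study describes the CD103-CD11b- subset as small, variable and mixed in phenotype, which limits what a mean over its cells can stand for. The replicates are called biological, but the number of mice behind each is not stated, so p-values measure only the spread between these arrays.

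Plasma cells are the antibody-secreting end stage of the B-cell lineage, and the gut LP is one of their main homes. They make IgA in an enlarged endoplasmic reticulum (ER), for which the transcription factor XBP1 turns on chaperones and degradation factors. pDCs are the main source of type I interferon among blood cells and depend on the E protein TCF4, also known as E2-2. Plasma cells and pDCs share a secretory cell form and several genes, *Mzb1*, *Derl3* and *Jchain* among them, and pDCs reach the small intestine through CCR9, the receptor for the chemokine CCL25. A mixed RNA sample cannot tell fewer cells of a type from less RNA per cell.

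Each value is the log2 signal of the gene's probeset, so a difference of 1 is a 2-fold difference, and signals of different genes cannot be set against each other. The promoters of *Derl3*, *Cd79a* and *Ccr9* are shown, since these genes lay above all 12 other arrays on each of the 3 CD103-CD11b- arrays. They are among the 5 of the 10 genes whose RefSeq promoters (GRCm38.p6) were searched. *Mzb1* and *Ly6d* also lay above all 12 other arrays, but their promoters were not among those searched. Each run is the 250 bases before the start of transcription. Capitals mark the ER stress response element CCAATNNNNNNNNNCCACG, on either strand, in *Derl3* and the E-box CANNTG, the letters that E proteins such as TCF4 bind, in *Cd79a* and *Ccr9*.
Derl3, chr10:75893148-75893397, plus strand: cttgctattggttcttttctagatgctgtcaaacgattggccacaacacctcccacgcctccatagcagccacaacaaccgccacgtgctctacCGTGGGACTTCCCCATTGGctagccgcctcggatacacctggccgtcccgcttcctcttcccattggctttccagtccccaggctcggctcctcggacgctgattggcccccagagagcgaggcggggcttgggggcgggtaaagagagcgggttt
Cd79a, chr7:24897247-24897496, plus strand: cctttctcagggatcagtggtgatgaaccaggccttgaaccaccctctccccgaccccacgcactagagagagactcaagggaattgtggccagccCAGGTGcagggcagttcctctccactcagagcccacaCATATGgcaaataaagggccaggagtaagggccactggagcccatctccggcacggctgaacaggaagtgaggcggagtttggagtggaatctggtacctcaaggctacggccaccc
Ccr9, chr9:123766961-123767210, plus strand: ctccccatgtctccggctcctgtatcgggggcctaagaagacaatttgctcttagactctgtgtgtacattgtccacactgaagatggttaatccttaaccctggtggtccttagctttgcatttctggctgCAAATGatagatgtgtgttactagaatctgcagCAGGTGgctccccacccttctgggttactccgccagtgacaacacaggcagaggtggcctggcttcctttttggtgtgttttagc
The *Derl3* promoter held 1 match to the ER stress response element, on the minus strand, 156 to 138 bases before the start. Of 32851 promoters with a full window of this length, 37 (0.113%) held such a match, and the windows of *Cd79a*, *Ccr9*, *Jchain* and *Xbp1* held none. The E-box was in all 5 windows, with 2 or 3 matches each, but also in 66.2% of all promoters. The CCACG core of the ER element, searched on both strands, was in *Derl3* (3 matches, 1 of them within that element and 1 overlapping an E-box) and in *Cd79a* (1 match), against 28.3% of all promoters. Its other end, CCAAT, had 5 matches in *Derl3*, 1 of them within that element, and none in the other windows, against 33.8% of all promoters. The octamer ATTTGCAT of B-cell promoters, present in 1.6% of promoters, and the core TGACGTGG, present in 0.563%, had no match on either strand in the 5 windows. These matches are descriptions of letters and not of bound sites.

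The RNA of the sort genes placed CD103-CD11b- DCs between the gates. *Itgae*, which encodes CD103, had a mean log2 signal of 8.76 ± 0.18 (SD, n = 3 arrays here and below) in CD103-CD11b- DCs, against 10.38 ± 0.16 (CD103+CD11b+), 7.84 ± 0.42 (CD103-CD11b+) and 10.90 ± 0.06 (CD103+CD11b-) in the other DC subsets and 5.09 ± 0.20 in mϕ. It was 0.92 ± 0.17 (SE) above CD103-CD11b+ DCs, the other CD103- subset, with an adjusted p of 0.0073 in limma. *Itgam*, for CD11b, was at 6.64 ± 0.33, which was 1.71 ± 0.14 (SE) above CD103+CD11b- DCs, the other CD11b- subset (4.93 ± 0.16, adjusted p = 1.47e-06), and 2.89 or more below the remaining 3 populations. *Flt3*, a growth factor receptor of the DC lineage, was at 9.94 ± 0.21 in CD103-CD11b- DCs against 5.31 ± 0.15 in mϕ, and *Fcgr1*, for CD64, at 4.02 ± 0.47 against 8.92 ± 0.21. Arrays of 1 population correlated at r = 0.978 to 0.995 across genes. Arrays of 1 population differed in pancreatic acinar RNA, read from 12 genes of digestive enzymes and their cells. One of them, *Bhlha15*, encodes a transcription factor that plasma cells also use, but the same array of each population was highest by the other 11 genes. The mean log2 signal of the 12 was 5.66, 8.55 and 6.30 on replicates 1, 2 and 3 of CD103-CD11b- DCs. It was highest in replicate 2 of CD103+CD11b+ DCs (7.51, with replicate 3 at 6.88), of CD103+CD11b- DCs (8.50) and of mϕ (7.03), and in replicate 3 of CD103-CD11b+ DCs (7.41). Results are also given without these 5 arrays, called acinar-rich, a choice made after the values were seen.

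The mean log2 signal was highest in CD103-CD11b- DCs of the 5 populations for 8 of the 10 genes, where 16.8% of all genes have their highest mean. The exceptions were *Cd79b*, which was level with mϕ, and *Ms4a1*, for which CD103+CD11b- DCs and mϕ had higher means. All 3 CD103-CD11b- arrays lay above all 9 arrays of the other DC subsets for 7 genes (*Mzb1*, *Derl3*, *Ly6d*, *Cd79a*, *Cd79b*, *Tcf4* and *Ccr9*), a pattern that 2.41% of all genes show. They lay above all 12 other arrays for 5 genes (*Mzb1*, *Derl3*, *Ly6d*, *Cd79a* and *Ccr9*), against 1.49% of all genes. Nothing is read from these shares, since the genes were chosen for them. CD103+CD11b- DCs had the lowest mean of the 5 populations for 8 genes, all but *Ms4a1* and *Ccr9*. Without the acinar-rich array of each population, the mean remained highest in CD103-CD11b- DCs for the same 8 genes. The 5 genes above all other arrays had to remain so with arrays left out, and none of the other genes joined them.

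**Figure D1:**
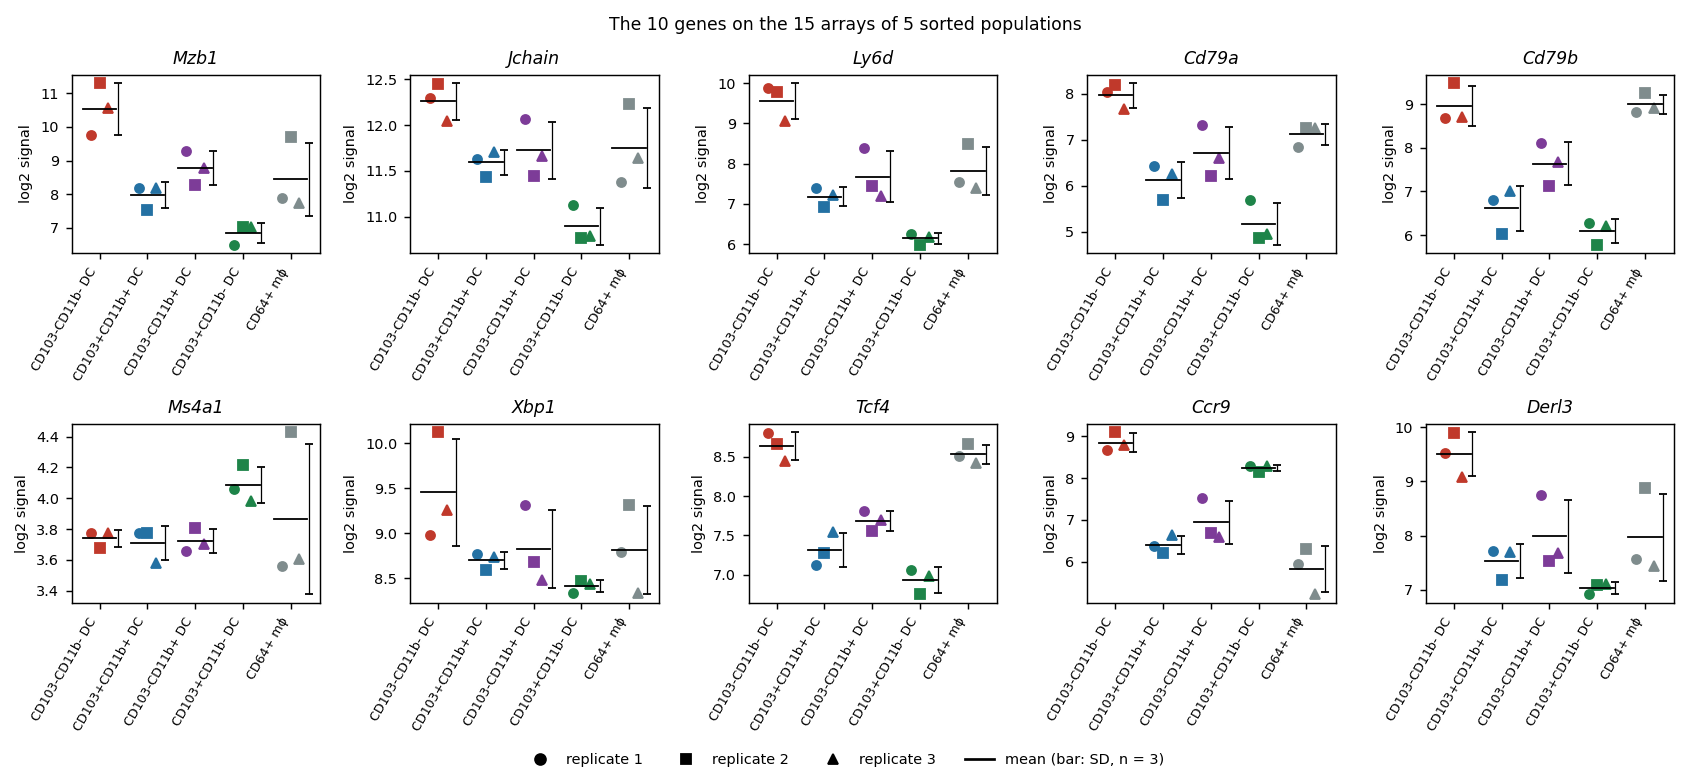
Log2 signal (vertical axis) of the 10 genes on each array, by population (horizontal axis). Each point is 1 array and its shape gives the replicate number, the line is the mean and the bar the SD (n = 3), and each panel has its own axis range. The red CD103-CD11b- points stand clear of the other DC subsets in 7 panels, and not for *Jchain*, *Ms4a1* and *Xbp1*.

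*Mzb1* encodes an ER co-chaperone of B cells and pDCs that takes part in antibody assembly. It had log2 signals of 9.75, 11.30 and 10.56 on replicates 1, 2 and 3 of CD103-CD11b- DCs (replicates are given in this order throughout). The CD103+CD11b+ arrays had 8.18, 7.53 and 8.20, CD103-CD11b+ DCs had 9.28, 8.29 and 8.79, CD103+CD11b- DCs had 6.50, 7.02 and 7.03, and mϕ had 7.90, 9.69 and 7.74. The lowest CD103-CD11b- array was 0.06 above the highest other array, replicate 2 of mϕ. The mean of 10.53 ± 0.78 in CD103-CD11b- DCs was 3.36-fold that of the next population, CD103-CD11b+ DCs (8.78 ± 0.50), and 12.9-fold that of CD103+CD11b- DCs (6.85 ± 0.30). Leaving out the acinar-rich arrays made the first of these 2.59-fold.

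*Jchain* encodes the chain that joins IgA and IgM into polymers. Its log2 signals were 12.29, 12.44 and 12.05 in CD103-CD11b- DCs. Among the others, CD103+CD11b+ DCs had 11.63, 11.44 and 11.71, CD103-CD11b+ DCs had 12.06, 11.45 and 11.67, CD103+CD11b- DCs had 11.13, 10.77 and 10.79, and mϕ had 11.38, 12.23 and 11.64. Signals were high in every population, and CD103-CD11b- DCs overlapped with CD103-CD11b+ DCs and mϕ, with a mean (12.26 ± 0.20) 1.42-fold that of mϕ, the next in order. *Jchain* transcripts are abundant in plasma cells, and *Igha*, the IgA heavy chain they secrete, did not follow the same order. *Igha* averaged 10.16 ± 0.95 in CD103-CD11b- DCs, against 10.12 ± 0.50 (CD103+CD11b+), 10.58 ± 0.78 (CD103-CD11b+) and 8.86 ± 0.76 (CD103+CD11b-) in the other DC subsets and 9.47 ± 1.28 in mϕ. The difference of CD103-CD11b- DCs from the other 4 populations ran from -0.41 ± 0.61 to 1.30 ± 0.61 (SE), with adjusted p of 0.265 to 0.992 by limma.

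*Xbp1*, the transcription factor of the plasma cell ER, had log2 signals of 8.98, 10.12 and 9.26 in CD103-CD11b- DCs. CD103+CD11b+ DCs had 8.77, 8.59 and 8.73, CD103-CD11b+ DCs had 9.31, 8.68 and 8.48, CD103+CD11b- DCs had 8.34, 8.47 and 8.43, and mϕ had 8.79, 9.31 and 8.33. The mean of 9.46 ± 0.59 in CD103-CD11b- DCs was the highest, 1.55-fold that of CD103-CD11b+ DCs, but it rested on replicate 2. Replicates 1 and 3 lay below the highest array of CD103-CD11b+ DCs and of mϕ, and without the acinar-rich arrays the difference from CD103-CD11b+ DCs was 0.13 in place of 0.63. XBP1 protein is made active by splicing of its mRNA, which a probeset over the whole gene does not read.

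*Derl3* encodes Derlin-3, a membrane protein of the pathway that clears misfolded proteins from the ER. Its log2 signals were 9.53, 9.89 and 9.08 in CD103-CD11b- DCs. The CD103+CD11b+ arrays had 7.72, 7.17 and 7.70, CD103-CD11b+ DCs had 8.75, 7.52 and 7.68, CD103+CD11b- DCs had 6.91, 7.09 and 7.11, and mϕ had 7.58, 8.88 and 7.44. All CD103-CD11b- arrays were above all others, by 0.20 or more, and the mean of 9.50 ± 0.40 was 2.86-fold that of CD103-CD11b+ DCs and 5.5-fold that of CD103+CD11b- DCs. It remained 2.25-fold that of CD103-CD11b+ DCs without the acinar-rich arrays. This is the gene whose promoter holds the ER stress response element.

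The signalling chains of the B-cell receptor came next. *Cd79a* encodes Igα and had log2 signals of 8.04, 8.20 and 7.66 in CD103-CD11b- DCs. Among the others, CD103+CD11b+ DCs had 6.43, 5.69 and 6.25, CD103-CD11b+ DCs had 7.31, 6.20 and 6.61, CD103+CD11b- DCs had 5.68, 4.86 and 4.95, and mϕ had 6.85, 7.25 and 7.26. The CD103-CD11b- arrays did not overlap with any other, and their mean of 7.97 ± 0.28 was 1.8-fold that of mϕ and 6.99-fold that of CD103+CD11b- DCs. *Cd79b*, for Igβ, is also transcribed in pDCs. It had log2 signals of 8.69, 9.49 and 8.71 in CD103-CD11b- DCs. CD103+CD11b+ DCs had 6.80, 6.03 and 7.02, CD103-CD11b+ DCs had 8.11, 7.13 and 7.68, CD103+CD11b- DCs had 6.29, 5.78 and 6.22, and mϕ had 8.82, 9.24 and 8.92. Among DCs the CD103-CD11b- arrays stood above the rest, 2.5-fold over CD103-CD11b+ DCs in the mean, while CD103-CD11b- DCs (8.96 ± 0.46) and mϕ (8.99 ± 0.22) overlapped.

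*Ms4a1* encodes CD20, which mature B cells carry and plasma cells have lost. Its log2 signals were 3.77, 3.68 and 3.77 in CD103-CD11b- DCs. All other arrays lay between 3.56 and 4.43, with the lowest mean in CD103+CD11b+ DCs (3.71) and the highest in CD103+CD11b- DCs (4.09). The CD103+CD11b- arrays, at 4.06, 4.22 and 3.98, lay above the other 9 DC arrays, though by less than the log2 limit of 1 set for a call, and the highest array of all was replicate 2 of mϕ. All signals of *Ms4a1* lay below the median probeset signal of the arrays (4.74 to 4.86), so nothing is read from their order. *Ly6d*, a surface protein of early B-lineage and pDC precursors, had log2 signals of 9.87, 9.77 and 9.05 in CD103-CD11b- DCs. The CD103+CD11b+ arrays had 7.39, 6.93 and 7.23, CD103-CD11b+ DCs had 8.39, 7.44 and 7.19, CD103+CD11b- DCs had 6.26, 5.98 and 6.18, and mϕ had 7.55, 8.49 and 7.40. Its lowest CD103-CD11b- array was 0.57 above the highest other array, the widest such gap of the 10 genes, and the mean of 9.57 ± 0.45 was 3.37-fold that of mϕ and 10.7-fold that of CD103+CD11b- DCs.

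*Tcf4*, the E protein on which pDCs depend, had log2 signals of 8.80, 8.66 and 8.45 in CD103-CD11b- DCs. Among the others, CD103+CD11b+ DCs had 7.12, 7.27 and 7.54, CD103-CD11b+ DCs had 7.81, 7.55 and 7.69, CD103+CD11b- DCs had 7.06, 6.75 and 6.99, and mϕ had 8.51, 8.66 and 8.42. The CD103-CD11b- arrays lay 0.64 or more above the other DC arrays and among those of mϕ, and the mean of 8.63 ± 0.18 was 1.93-fold that of CD103-CD11b+ DCs and 1.07-fold that of mϕ. *Ccr9* had another order. Its log2 signals were 8.66, 9.10 and 8.78 in CD103-CD11b- DCs. CD103+CD11b+ DCs had 6.37, 6.21 and 6.64, CD103-CD11b+ DCs had 7.53, 6.69 and 6.60, CD103+CD11b- DCs had 8.28, 8.15 and 8.28, and mϕ had 5.95, 6.30 and 5.21. The 2 CD11b- subsets were the high ones, with CD103-CD11b- DCs (8.85 ± 0.22) 1.53-fold above CD103+CD11b- DCs (8.24 ± 0.08), and mϕ were 8.16-fold below CD103-CD11b- DCs.

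**Figure D2:**
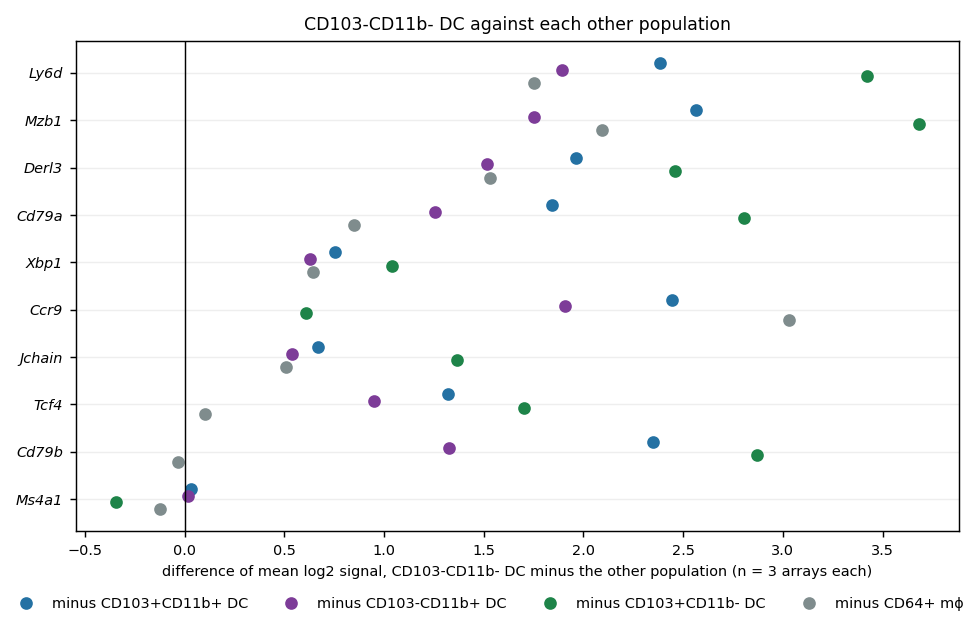
Difference of mean log2 signal, CD103-CD11b- DCs minus each other population (horizontal axis, n = 3 arrays each), for the 10 genes (rows), ordered by the smallest difference. *Ly6d*, *Mzb1* and *Derl3* are more than 1.5 above every other population, *Tcf4* and *Cd79b* are high against DCs but within 0.11 of mϕ, and the green CD103+CD11b- point is farthest right for all genes but *Ccr9* and *Ms4a1*.

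Most of the genes shared their highest array in 3 of the 5 populations. Replicate 2 of CD103-CD11b- DCs was the highest of its population for 7 genes, replicate 1 of CD103-CD11b+ DCs for 9 and replicate 2 of mϕ for 9. In CD103+CD11b+ DCs the highest array was replicate 1 for 5 genes and replicate 3 for 5, and in CD103+CD11b- DCs replicate 1 for 6, replicate 2 for 2 and replicate 3 for 2. Over the 15 arrays, deviations from the population means correlated positively for all 36 pairs of the 9 genes other than *Ms4a1*, from r = 0.21 (*Mzb1* with *Tcf4*) to r = 0.92 (*Ly6d* with *Derl3*), with a median of 0.66. These points share their libraries and their quantile normalization, and the correlations are descriptions with no p. The acinar level was high on replicate 2 of CD103-CD11b- DCs (8.55) and on replicate 2 of mϕ (7.03), 2 of the arrays just named, and epithelial markers, 20 genes, were at 8.48 on replicate 2 of mϕ against 6.56 and 6.47 on its other replicates. The array of CD103-CD11b+ DCs on which 9 genes were highest had an acinar level of 5.08, among the lowest. In CD103+CD11b- DCs, replicate 2 had an acinar level of 8.50 against 5.00 and 5.35, while *Mzb1* was at 7.02 against 6.50 and 7.03, *Derl3* at 7.09 against 6.91 and 7.11, and *Xbp1* at 8.47 against 8.34 and 8.43. The part of acinar or epithelial RNA in the levels of the 10 genes was not tested.

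**Figure D3:**
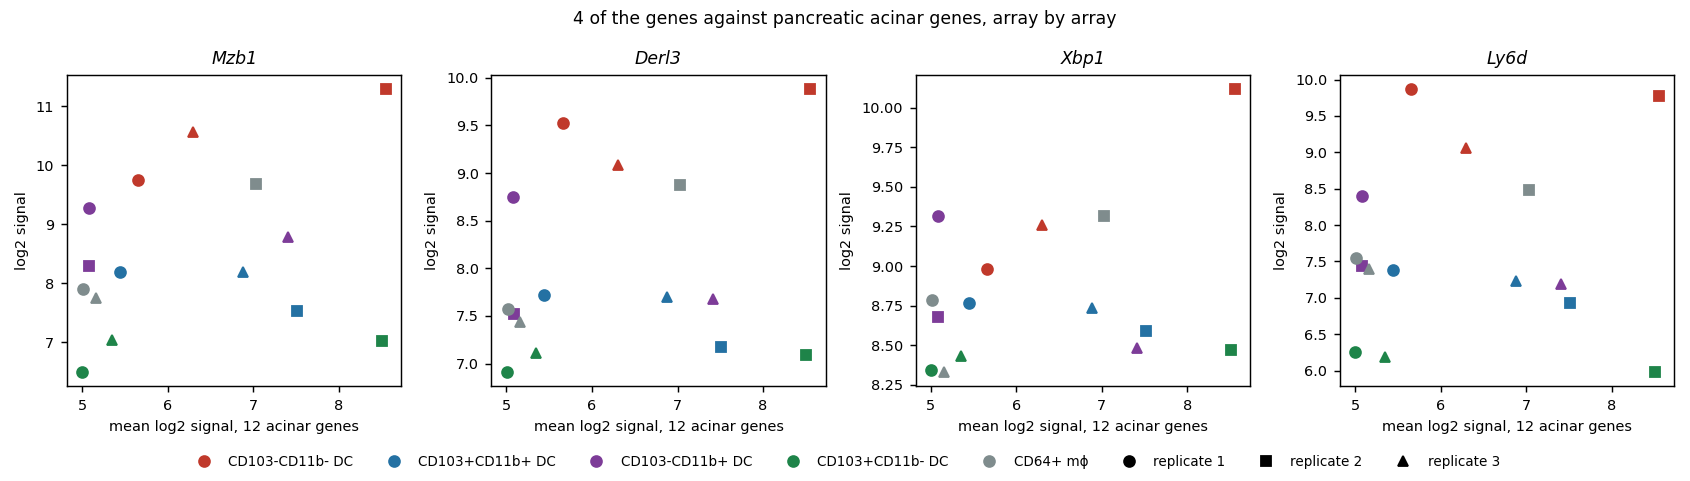
Log2 signal of *Mzb1*, *Derl3*, *Xbp1* and *Ly6d* (vertical axes) against the mean log2 signal of 12 pancreatic acinar genes (horizontal axis) on the 15 arrays, coloured by population and shaped by replicate number. The CD103-CD11b- arrays hold the top of the *Mzb1*, *Derl3* and *Ly6d* panels at acinar levels of 5.66, 6.30 and 8.55, and the CD103+CD11b- array at 8.50 stays with the other 2 of its population.

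Tests of the 10 genes were confined to the 6 comparisons among the other 4 populations, which leave out CD103-CD11b- DCs. The choice of genes drew on the values of all 15 arrays, so these tests are not fully independent of it. Passing took a log2 difference over 1 together with an adjusted p under 0.01 in limma, with Benjamini-Hochberg adjustment over all 19938 genes. The 3 comparisons between DC subsets were fitted on their 9 arrays, and the 3 with mϕ on all 15. *Cd79b* and *Ccr9* each passed in 4 comparisons, *Tcf4*, *Ly6d* and *Cd79a* in 2, *Mzb1* in 1, and *Jchain*, *Xbp1*, *Derl3* and *Ms4a1* in none of the 6. At an unadjusted p under 0.05 there were 7, 10, 4, 4, 3 and 8 of the 10 genes in the 6 comparisons, in the order in which they follow, where 24.4%, 25.6%, 12.5%, 28.1%, 27.3% and 31.5% of all genes met the same limit.

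Between CD103+CD11b+ and CD103+CD11b- DCs, 1 gene passed, *Ccr9*, which was lower in CD103+CD11b+ DCs (log2 difference -1.83 ± 0.21, SE, adjusted p = 0.000114), where 1.32% of all genes were lower and 1.95% higher. *Mzb1* (1.12 ± 0.25, adjusted p = 0.0119) and *Ly6d* (1.04 ± 0.25, adjusted p = 0.0172) did not pass. These misses turned on single arrays. *Mzb1* passed without replicate 2 of CD103+CD11b+ DCs (adjusted p = 0.00696) or replicate 1 or 2 of CD103-CD11b+ DCs (0.00631 and 0.00664), and *Ly6d* without replicate 1 or 3 of CD103-CD11b+ DCs (0.00047 and 0.0099), and arrays of CD103-CD11b+ DCs enter here through the shared spread. CD103-CD11b+ DCs differed from CD103+CD11b- DCs in 5 genes. *Mzb1* (1.93 ± 0.25, adjusted p = 0.000324), *Cd79a* (1.55 ± 0.29), *Cd79b* (1.54 ± 0.28) and *Ly6d* (1.53 ± 0.25, adjusted p of these 3 from 0.00165 to 0.00427) were higher in CD103-CD11b+ DCs, where 2.02% of all genes were higher. *Ccr9* was lower there (-1.30 ± 0.21, adjusted p = 0.00142), as were 1.3% of all genes. *Mzb1* missed the limit with all 15 arrays in the fit (adjusted p = 0.0123). *Cd79a* and *Cd79b* lost their calls without replicate 2 or 3 of CD103+CD11b- DCs or replicate 1 or 3 of CD103-CD11b+ DCs, with adjusted p of 0.0112 to 0.0244. They did so too without the acinar-rich arrays, as did *Ccr9*, with 2 arrays per population and differences of 1.45, 1.36 and -1.17, which left 2 calls, *Mzb1* and *Ly6d*. Between CD103+CD11b+ and CD103-CD11b+ DCs no gene passed, where 0.231% of all genes were higher and 0.306% lower. The largest difference was that of *Cd79b* (-1.02 ± 0.28, adjusted p = 0.0978).

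Against mϕ, *Cd79b* was lower in all 3 DC subsets. Its log2 difference from mϕ was -2.38 ± 0.29 for the CD103+CD11b+ subset (adjusted p = 2.09e-05), -1.36 ± 0.29 for the CD103-CD11b+ subset (adjusted p = 0.00337) and -2.90 ± 0.29 for the CD103+CD11b- subset (adjusted p = 1.88e-06). *Tcf4* was lower in the CD103+CD11b+ subset (-1.22 ± 0.13, adjusted p = 4.86e-06) and the CD103+CD11b- subset (-1.60 ± 0.13, adjusted p = 1.86e-07). In CD103-CD11b+ DCs its difference of -0.85 ± 0.13 stayed short of the limit of 1. *Ccr9*, the only one of the 10 that passed as higher in a DC subset than in mϕ, was higher in the CD103+CD11b- subset (2.42 ± 0.26, adjusted p = 3.92e-06) and the CD103-CD11b+ subset (1.12 ± 0.26, adjusted p = 0.00587). *Cd79a* (-1.96 ± 0.28) and *Ly6d* (-1.67 ± 0.32) passed only in CD103+CD11b- DCs, with adjusted p of 8.02e-05 and 0.000982, while CD103+CD11b- DCs also had less of both than CD103-CD11b+ DCs in the direct test above. In all, 2 genes were lower and none higher in CD103+CD11b+ DCs (3.34% and 2.34% of all genes), 1 lower and 1 higher in CD103-CD11b+ DCs (3.02% and 2.16%), and 4 lower and 1 higher in CD103+CD11b- DCs (4.04% and 2.99%). Leaving out any 1 of the 6 arrays of CD103-CD11b+ DCs and mϕ cost 1 of the 2 calls between them, *Cd79b* with adjusted p of 0.0123 to 0.0226 or *Ccr9* with 0.0136 to 0.0307. *Jchain* passed as lower in CD103+CD11b- DCs without replicate 1 of mϕ (-1.04, adjusted p = 0.00182). *Ly6d* in CD103+CD11b- DCs was at -1.25 (adjusted p = 0.0164) without the acinar-rich arrays.

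**Figure D4:**
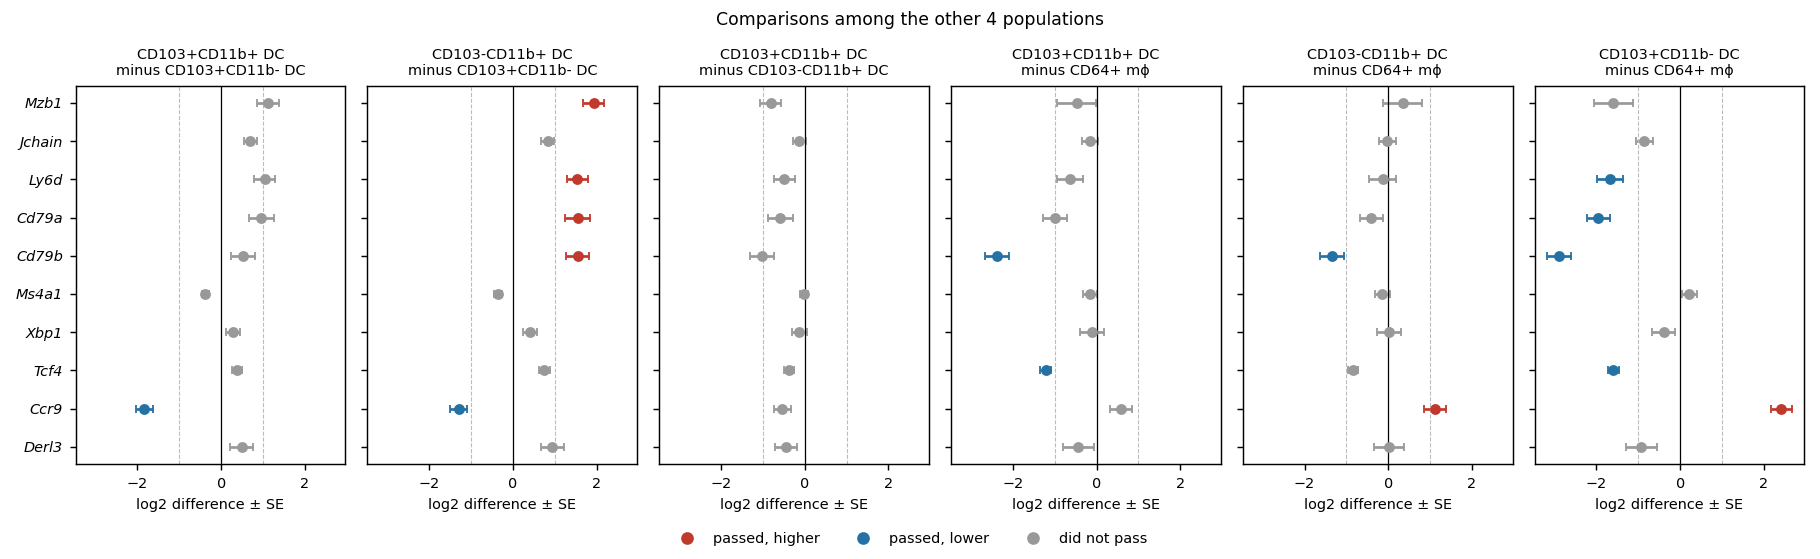
Log2 difference ± SE (horizontal axis) of the 10 genes (rows) in the 6 comparisons among the populations other than CD103-CD11b- DCs. Red marks genes that passed as higher and blue as lower in the population named first, and grey those that did not pass. *Ccr9* is blue in the 2 comparisons of another DC subset with CD103+CD11b- DCs and red in 2 of the 3 with mϕ.

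The order of neighbouring populations rests on the same tests. For *Mzb1*, CD103-CD11b+ DCs, mϕ and CD103+CD11b+ DCs followed CD103-CD11b- DCs, and no 2 neighbours among them passed (adjusted p = 0.736 and 0.596). For *Derl3* and *Xbp1* none of the 6 differences passed, the nearest being that of *Derl3* between CD103-CD11b+ and CD103+CD11b- DCs (0.94 ± 0.27, adjusted p = 0.0403). *Jchain* was lowest in CD103+CD11b- DCs, by 0.70 to 0.86, which stayed under the limit of 1. For *Ccr9*, the difference did not pass between CD103+CD11b+ and CD103-CD11b+ DCs (-0.53 ± 0.21, adjusted p = 0.306) or between CD103+CD11b+ DCs and mϕ (0.59 ± 0.26, adjusted p = 0.147).

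Other genes of the same programmes were read from lists, chosen with earlier results of these data known. A list gene passed when it was higher, or lower, in CD103-CD11b- DCs than in each of the other 3 DC subsets, by the same limits. Over all genes 40 were higher (0.201%) and 11 lower (0.0552%).

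Of the 22 measured plasma cell genes, 3 were higher and none lower, and 13 were higher at an unadjusted p under 0.05 in all 3 comparisons, a looser limit that 2.24% of all genes met. The 3 were *Pou2af1*, a co-activator of octamer-binding factors in B cells and plasma cells, *Tnfrsf17*, which encodes the plasma cell survival receptor BCMA, and *Glcci1*. *Pou2af1* averaged 9.72 ± 0.57 in CD103-CD11b- DCs, against 7.32 ± 0.38 (CD103+CD11b+), 7.73 ± 0.62 (CD103-CD11b+) and 6.27 ± 0.21 (CD103+CD11b-) in the other DC subsets and 7.97 ± 0.71 in mϕ. *Tnfrsf17* averaged 8.57 ± 0.45 in CD103-CD11b- DCs, against 6.18 ± 0.39, 6.78 ± 0.40 and 5.39 ± 0.10 in the other DC subsets in the same order and 6.97 ± 0.45 in mϕ. The smallest of the 3 differences was 2.00 for *Pou2af1* (SE 0.37, adjusted p = 0.00623), 1.80 for *Tnfrsf17* (SE 0.27, adjusted p = 0.00144) and 1.17 for *Glcci1* (SE 0.20, adjusted p = 0.00436), each against CD103-CD11b+ DCs. *Sdc1*, for the plasma cell surface marker CD138, averaged 7.67 ± 0.64 in CD103-CD11b- DCs, against 5.90 ± 0.32, 6.35 ± 0.34 and 5.57 ± 0.10 in the other DC subsets and 6.02 ± 0.50 in mϕ. Its arrays did not overlap with those of the other DC subsets, and it passed against each population but CD103-CD11b+ DCs (1.32 ± 0.29, adjusted p = 0.0202).

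By single comparison, 9 of the 22 plasma cell genes were higher than in the CD103+CD11b+ subset (0.908% of all genes), 3 than in the CD103-CD11b+ subset (0.356%), 15 than in the CD103+CD11b- subset (1.61%) and 10 than in mϕ (2.57%). None was lower than in a DC subset, where 1.02%, 0.451% and 1.05% of all genes were, and 2 were lower than in mϕ (3.73%). The median log2 difference of the list was 1.08 against CD103+CD11b+ DCs, 1.02 against CD103-CD11b+ DCs, 2.02 against CD103+CD11b- DCs and 1.17 against mϕ, with medians of all genes between -0.02 and 0.02. The mean was highest in CD103-CD11b- DCs of the 5 populations for 17 of the 22, against 16.8% of all genes. The list's mean log2 signal was 8.23, 8.74 and 8.17 on the CD103-CD11b- arrays, against 6.59 to 7.81 on the other DC arrays and 7.15 to 7.92 on those of mϕ. The count of 3 turned on single arrays. It was 0 without replicate 2 and 1 without replicate 3 of CD103-CD11b+ DCs, 5 without replicate 1 and 1 without replicate 2 of CD103-CD11b- DCs, and 9 without replicate 2 and 5 without replicate 3 of mϕ, which enter through the shared estimate of the spread. Without the acinar-rich arrays it was 0, over 2 arrays per population, where the count over all genes was 13.

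**Figure D5:**
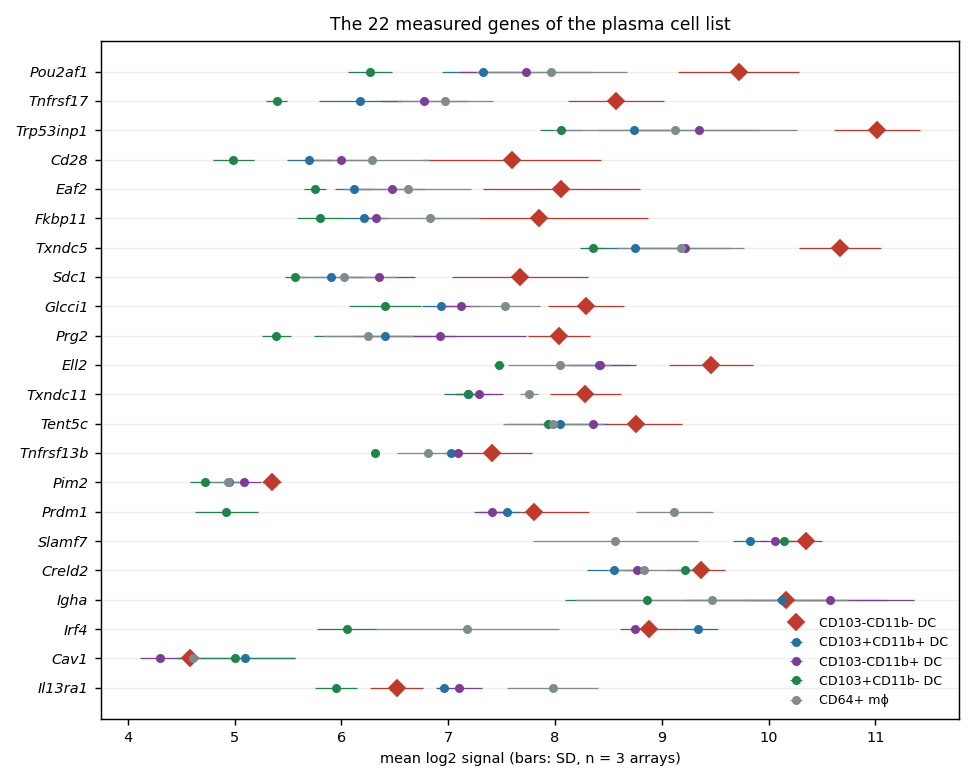
Mean log2 signal ± SD (horizontal axis, n = 3 arrays) of the 22 measured plasma cell genes (rows), ordered by the difference of CD103-CD11b- DCs from the highest other DC subset. Red diamonds of CD103-CD11b- DCs are the rightmost marks for 17 genes, and *Igha*, *Irf4*, *Cav1*, *Il13ra1* and *Prdm1* are the 5 exceptions.

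Of 27 measured B-cell genes, 3 were higher (*Pou2af1*, which both lists hold, *Blnk* and *Cd37*) and none lower. At an unadjusted p under 0.05 in all 3 comparisons 6 were higher (2.24% of all genes) and 1 lower (260 of 19938 genes). Without overlap, 6 lay above all other DC arrays (2.41% of all genes). *Blnk*, the adaptor that links the B-cell receptor to its kinases, averaged 7.33 ± 0.28 in CD103-CD11b- DCs, against 5.04 ± 0.18 (CD103+CD11b+), 5.50 ± 0.51 (CD103-CD11b+) and 4.59 ± 0.07 (CD103+CD11b-) in the other DC subsets and 6.05 ± 0.74 in mϕ. *Cd37*, a tetraspanin of B cells, averaged 7.98 ± 0.41 in CD103-CD11b- DCs, against 5.89 ± 0.15, 6.62 ± 0.31 and 6.66 ± 0.17 in the other DC subsets and 7.14 ± 0.23 in mϕ. The largest adjusted p of the 3 comparisons was 0.00271 for *Blnk* and 0.00105 for *Cd37*. The median difference of the B-cell list was 0.12 against CD103+CD11b+ DCs, 0.08 against CD103-CD11b+ DCs and 0.34 against CD103+CD11b- DCs. *Pax5*, the factor that fixes B-cell identity, was at 4.38 ± 0.05 in CD103-CD11b- DCs and between 4.41 and 4.46 in the other DC subsets, with adjusted p of 0.86 to 0.967. The B-cell count fell to 1 without replicate 2 or 3 of CD103-CD11b+ DCs, without replicate 2 of CD103-CD11b- DCs, or without the acinar-rich arrays.

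None of the 37 measured genes of ER stress and secretion passed in either direction. At an unadjusted p under 0.05 in all 3 comparisons 15 were higher (2.24% of all genes), and 14 lay above all other DC arrays without overlap (2.41% of all genes). The differences were small, with list medians of 0.60 against CD103+CD11b+ DCs, 0.48 against CD103-CD11b+ DCs, 0.27 against CD103+CD11b- DCs and 0.30 against mϕ. *Hsp90b1*, the ER chaperone gp96, averaged 11.91 ± 0.11 in CD103-CD11b- DCs, against 11.22 ± 0.10, 11.34 ± 0.12 and 11.45 ± 0.03 in the other DC subsets and 11.77 ± 0.05 in mϕ. *Sec61b*, a subunit of the ER translocon, was at 11.71 ± 0.16 in CD103-CD11b- DCs, against 11.10 ± 0.05, 11.49 ± 0.06 and 11.08 ± 0.17 in the other DC subsets and 11.21 ± 0.08 in mϕ. Both differences were under the limit of 1. Without replicate 3 of CD103-CD11b- DCs the count was 2.

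The pDC list had a single gene past the limits. Of 24 measured, 1 passed as higher and none as lower, 5 were higher at an unadjusted p under 0.05 in all 3 comparisons (2.24% of all genes), and the median difference was 0.24, 0.05 and 0.35 against the DC subsets and 0.07 against mϕ. That gene was *Siglech*, which encodes a receptor of mouse pDCs. It averaged 6.28 ± 0.48 in CD103-CD11b- DCs, against 4.49 ± 0.07 (CD103+CD11b+), 4.59 ± 0.49 (CD103-CD11b+) and 4.24 ± 0.14 (CD103+CD11b-) in the other DC subsets and 6.0 ± 0.46 in mϕ. It was thus 1.69 ± 0.26 or more above each DC subset (largest adjusted p = 0.00189) and 0.28 ± 0.26 above mϕ (adjusted p = 0.571), the same arrangement as *Tcf4* and *Cd79b*. That call was lost without replicate 2 or 3 of CD103-CD11b+ DCs and without the acinar-rich arrays, and without replicate 3 of CD103-CD11b- DCs the count was 2. *Plac8* (11.46 ± 0.08) and *Rnase6* (10.68 ± 0.11), the list's highest signals in CD103-CD11b- DCs, differed by 0.20 or less in size from CD103+CD11b+ and CD103-CD11b+ DCs. Against CD103+CD11b- DCs the difference was 0.86 ± 0.13 for *Plac8* (adjusted p = 0.000296) and -0.44 ± 0.10 for *Rnase6* (adjusted p = 0.00717), both under the limit of 1. Both genes were higher than in mϕ, by 1.84 and 0.885.

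Of 11 measured E proteins, ID proteins and partners of TCF4, none passed in all 3 comparisons, and 2 were higher in all 3 at an unadjusted p under 0.05, against 2.24% of all genes. *Irf8*, a transcription factor of pDCs and of CD103+CD11b- DCs, averaged 10.07 ± 0.03 in CD103-CD11b- DCs, against 7.48 ± 0.35 (CD103+CD11b+), 7.85 ± 0.12 (CD103-CD11b+) and 11.54 ± 0.22 (CD103+CD11b-) in the other DC subsets and 9.42 ± 0.33 in mϕ. Its difference was 2.58 ± 0.18 from the CD103+CD11b+ subset (adjusted p = 5.14e-07) and -1.47 ± 0.18 from the CD103+CD11b- subset (adjusted p = 5.27e-05), an intermediate place. *Id2*, an inhibitor of E proteins that conventional DCs express, was at 9.43 ± 0.28 in CD103-CD11b- DCs, against 9.15 ± 0.11, 8.66 ± 0.24 and 10.09 ± 0.03 in the other DC subsets and 7.51 ± 0.38 in mϕ. Without replicate 3 of CD103-CD11b- DCs 1 gene of this list passed.

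Of 11 measured gut homing genes, none was higher and 1, *Aldh1a2*, was lower. At an unadjusted p under 0.05 in all 3 comparisons 2 were higher (2.24% of all genes) and 1 lower (260 of 19938 genes). *Aldh1a2*, for the enzyme that makes retinoic acid, the signal that imprints CCR9 on lymphocytes, averaged 6.02 ± 0.25 in CD103-CD11b- DCs, against 7.53 ± 0.04 (CD103+CD11b+), 7.29 ± 0.12 (CD103-CD11b+) and 7.97 ± 0.07 (CD103+CD11b-) in the other DC subsets and 5.17 ± 0.16 in mϕ. Its smallest difference, against CD103-CD11b+ DCs, was -1.27 ± 0.12 (adjusted p = 2.57e-05), and the call held with each array left out and without the acinar-rich arrays. *Ccr10*, a chemokine receptor named after its values were seen, was the 1 list gene above all other DC arrays without overlap (2.41% of all genes). It averaged 7.85 ± 0.59 in CD103-CD11b- DCs, against 6.12 ± 0.27, 6.46 ± 0.44 and 5.27 ± 0.39 in the other DC subsets and 6.58 ± 0.82 in mϕ. It did not pass against CD103-CD11b+ DCs (1.38 ± 0.37, SE, adjusted p = 0.0583 in limma). *Itga4*, the α4 chain of the gut homing integrin, was at 10.37 ± 0.15 in CD103-CD11b- DCs, against 9.97 to 10.25 in the means of the other DC subsets. *Cxcr4*, which holds plasma cells in their niches, was at 10.14 ± 0.33 in CD103-CD11b- DCs, against 9.97 ± 0.25, 10.37 ± 0.16 and 8.89 ± 0.23 in the other DC subsets, and passed only against CD103+CD11b- DCs (1.25 ± 0.18, adjusted p = 0.000293).

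Markers of other cells were read in the same way. T-cell markers had 1 of 16 genes higher in CD103-CD11b- DCs (*Cd8b1*, the T-cell co-receptor chain CD8β), with a list level of 5.15 to 5.41 against 4.46 to 5.16 on the other DC arrays. Of the markers of NK cells and innate lymphoid cells (15), conventional DCs (11), mϕ (13), epithelium (20), acinar cells (12), stroma and endothelium (10) and mast cells and granulocytes (12), none was higher or lower in all 3 comparisons. *Cd3e* was at 5.36 ± 0.21 in CD103-CD11b- DCs and at 5.61 to 5.66 in the means of the other DC subsets, and *Ncr1* at 3.47 ± 0.10 and 3.37 to 3.47. Other markers of these cells, named after their values were seen, were higher in CD103-CD11b- DCs. Besides *Cd8b1*, the T-cell markers *Thy1*, *Cd28* and *Cd2* lay above the other DC arrays without overlap, a pattern that 2.41% of all genes show. *Cd28* is also on the plasma cell list, and *Cd2* ran from 5.55 to 7.51 on the CD103-CD11b- arrays. Of the NK cell and innate lymphoid markers, *Il2rb*, a chain of the IL-2 receptor, had no overlap either. *Thy1* averaged 9.21 ± 0.27 in CD103-CD11b- DCs, against 7.51 ± 0.32 (CD103+CD11b+), 7.57 ± 0.80 (CD103-CD11b+) and 5.91 ± 0.71 (CD103+CD11b-) in the other DC subsets and 6.92 ± 0.40 in mϕ. *Il2rb* averaged 6.13 ± 0.49 in CD103-CD11b- DCs, against 4.85 ± 0.19, 5.06 ± 0.19 and 4.64 ± 0.28 in the other DC subsets and 5.04 ± 0.22 in mϕ, and its largest adjusted p of the 3 comparisons was 0.011. The mean was highest in CD103-CD11b- DCs for 7 of the 16 T-cell and 6 of the 15 NK cell and innate lymphoid genes, and for 8 of the 12 acinar genes. Over all genes this share was 16.8%. *Bhlha15*, the acinar gene that plasma cells share, was the only one of the 12 without overlap, at 7.61 ± 0.94 in CD103-CD11b- DCs, against 5.76 ± 0.37, 6.24 ± 0.45 and 5.15 ± 0.22 in the other DC subsets and 6.27 ± 0.38 in mϕ. *Ctrb1*, for a digestive enzyme, ran from 6.85 to 11.74 on the CD103-CD11b- arrays, against 4.78 to 11.67 on the other DC arrays. The mϕ list was at 7.71 on replicate 1 of CD103-CD11b- DCs, against 6.47 and 6.65 on its other replicates, 6.04 to 8.12 on the other DC arrays and 10.84 to 10.96 on those of mϕ. *Cd79b* and *Tcf4*, which mϕ also carried, were at 8.69 and 8.80 on that replicate and at 9.49 and 8.66 on replicate 2, which had the lowest mϕ level. *Epcam* was at 7.48 ± 0.16 in CD103-CD11b- DCs and 7.16 to 8.26 in the means of the other DC subsets, and *Zbtb46*, a factor of conventional DCs, at 7.11 ± 0.03 and 7.26 to 7.37. The part of these cells in the levels of the 10 genes was not tested.

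The genes most like each of the 10 over the 15 arrays were sought by Pearson's r among 2319 genes whose population means spanned more than 1, as a description without p. *Mzb1* was most like *Trp53inp1* (r = 0.977), *Pou2af1* (0.973) and *Ikzf3* (0.968), the last of which encodes the lymphocyte factor Aiolos. *Derl3* was most like *Cacna1h* (0.989), *Txndc5* (0.983) and *Trp53inp1* (0.982), and *Xbp1* most like *Mcoln2* (0.937), *Hsd11b1* (0.932) and *Eaf2* (0.929). *Txndc5*, a protein disulphide isomerase of the ER, *Trp53inp1* and *Eaf2* were also on the plasma cell list. *Jchain* was most like *Slpi* (0.940), *Ly6d* (0.935) and *Cd79a* (0.935). The nearest genes of *Ly6d* were *Pou2af1* (0.973), *Blnk* (0.970) and *Gimap6* (0.968), and those of *Cd79a* were *Glcci1* (0.944), *Tnfrsf17* (0.941) and *Ly6d* (0.940). *Cd79b* and *Tcf4* were each other's nearest gene (0.965), followed by *Pml* (0.948) and *Itgal* (0.940) for *Cd79b* and by *Siglech* (0.941) and *Pml* (0.931) for *Tcf4*. *Ccr9* stood apart, with *Zfp296* (0.955), *Osbpl3* (0.934) and *Glipr1* (0.926). *Ms4a1*, at the low end of its signals, reached only 0.758 with *Itga8*, 0.734 with *Muc3* and 0.723 with *Reg3g*. The points share their libraries and normalization, and each population adds 3 points that lie together.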

How the data were processed

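RNA of 5 sorted populations (15 arrays, 3 each) was amplified, labelled and hybridised by the authors to Affymetrix GeneChip Mouse Gene 1.0 ST arrays. The deposited values are log2 signals of 35556 probesets, which the authors made with RMA (background correction, quantile normalization and summary per probeset), so genes are comparable between arrays and not with each other, and the number of arrays limits the precision. Quantile normalization brings the distributions of the arrays close together, and medians of the deposited probeset signals lay between 4.74 and 4.86. The genome build and the mice per array are not given in the sources used here.

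Of the probesets, 21789 have 1 gene symbol in the platform annotation, 1621 several and 12146 none listed. The probeset of highest mean stood for each of 19938 genes, and each of the 10 genes has 1 probeset. Differences were tested with limma 3.58.1 (lmFit and eBayes) in R 4.3.3 without covariates, with Benjamini-Hochberg adjustment over all genes. The limits (adjusted p under 0.01, log2 difference over 1) are those of the legend of the study's array figure. The DC subsets other than CD103-CD11b- were compared on their 9 arrays and all else on 15. The fit was tested on simulated data.

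The 10 genes and all lists were chosen with earlier results of these data known. The text names the 10 genes, and of each list up to 4 genes per direction that passed with the largest differences, or, with fewer than 2, the 2 of highest mean in CD103-CD11b- DCs, besides defining markers, sort genes and the 3 genes most alike to each of the 10. Genes without a probeset of their own were not analysed here. Alternatives were another probeset rule, median centring, a filter on dim genes (8372 genes kept), a variance trend, array weights, the replicate number as a term, an adjusted p under 0.05, the methods' Student t-test, all 15 arrays in the fit, and each array left out. Motifs were searched on both strands of RefSeq promoters (GRCm38.p6), leaving out those of the 10 genes on chromosome 18.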

Additional observations from a re-analysis of the deposited data

How the results depend on the processing

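Of 733 recomputed counts and levels over 26 settings, 663 stayed within 1.5 times the count or 1 SD of the level and 70 moved. The *Cd79b* level in CD103-CD11b- DCs less that in mϕ, -0.03, ran from -0.29 to 0.11 with an array left out. Of the tests of the 10 genes 1470 kept their side of the limits, 34 were lost and 20 gained. The 1 call of the 10 genes for CD103+CD11b+ against CD103+CD11b- DCs became 3 with the dim filter, array weights, the replicate block or an adjusted p under 0.05, 2 with a variance trend and 1 to 3 with an array left out. With array weights 1 call was left between CD103-CD11b+ DCs and mϕ, where leaving out an array gave 1 to 2, and between CD103-CD11b+ and CD103+CD11b- DCs leaving out an array gave 3 to 5. The plasma cell count of 3 was 7 with the dim filter, 5 with a trend or array weights, 10 at an adjusted p under 0.05 and 0 to 9 with an array left out. The B-cell count was then 1 to 4, the ER count 0 to 2, the pDC count 0 to 2 and the TCF4 partner count 0 to 1, and over all genes 14 to 56 were higher and 8 to 18 lower. At an adjusted p under 0.05, 67 genes were higher and 18 lower. The methods' t-test with Benjamini-Hochberg adjustment left the 10 genes with 2 calls between CD103+CD11b- DCs and mϕ and 0 in each other comparison, 0 over all genes and in every list, *Aldh1a2* included, and 29 higher and 54 lower against mϕ (512 and 744 with limma). Without adjustment, a choice made after the data were seen, it gave 3 calls for CD103+CD11b+ against CD103+CD11b- DCs, 1 between CD103-CD11b+ DCs and mϕ, 68 genes higher and 18 lower, 9 plasma cell genes and 1 gut homing gene higher. Without the acinar-rich array of each population, which leaves 2 arrays per group, 2 calls were left between CD103-CD11b+ and CD103+CD11b- DCs, 13 genes were higher, with 1 B-cell, 0 plasma cell and 0 pDC genes, and the *Xbp1* difference was 0.13. The cause was not tested.

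No label says that equal replicate numbers mark a shared animal or day, and 18 of 30 same-numbered pairs of arrays deviated together at r over 0.1 (mean r 0.12, against -0.06 for other pairs), which was not read as pairing. With the number as a block, 40 genes passed as higher and 16 as lower than in each other DC subset, 2 plasma cell and 2 B-cell genes were higher, and 1 of the 10, *Cd79b*, passed for CD103+CD11b+ against CD103-CD11b+ DCs (adjusted p = 0.00171).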

Other observations

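Outside the lists, the genes that passed as higher in CD103-CD11b- DCs than in each other DC subset, named here after their values were seen, included receptors and secretory genes. The smallest of the 3 log2 differences was 1.99 for *Cmah*, which makes a sialic acid of mouse glycans, 1.92 for *Cd209d*, a C-type lectin, 1.92 for *Ctse*, which encodes cathepsin E, and 1.45 for *Ltb*, which encodes lymphotoxin β. *Lman1*, a cargo receptor between the ER and the Golgi, differed by 1.09 or more, and *Tram2*, a protein of the ER translocation site, by 1.55 or more. Of the 11 genes lower in CD103-CD11b- DCs, the chemokine genes *Ccl17* (-2.73) and *Ccl22* (-2.12) were among those with the largest differences, and *Tnfsf13b*, which encodes the B-cell and plasma cell survival factor BAFF, was lower by the least (-1.03).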
